A study of Rattus norvegicus with 12 samples.

Results

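The comparison of a printed PCL scaffold with a printed hydrogel scaffold rested on 6 of the 12 RNA-seq libraries of the series, 3 from the PCL group and 3 from the hydrogel group, taken by the group that the sample labels give. Every library came from hindlimb bone of Rattus norvegicus, 2 weeks after a defect was made. Per the study's methods the animals were Sprague Dawley rats, 8 weeks old, with a drill hole in the distal femur, and newly formed tissue was collected together with the scaffold from whole defects. The PCL scaffold was polycaprolactone, a synthetic polyester that degrades slowly, and the hydrogel scaffold was GelMA, a light-cured gelatin methacryloyl that cells can digest. The other groups were the control group, whose defect was left without a scaffold, and the TCP group, with a scaffold of β-tricalcium phosphate ceramic. The labels do not say that the 3 libraries of a group came from separate rats, although the study's methods say, for its statistics in general, that groups were made of independent samples. The p-values describe no more than the spread of these libraries. No deletion, transgene or drug was part of any group. Of the 22601 genes in the table, the 12633 with an FPKM of at least 1 in at least 3 of the 12 libraries were tested, and all values below refer to these genes.

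A polymer placed in tissue draws macrophages, which settle on its surface, take up debris and lipid, secrete proteases and can fuse into foreign body giant cells. In a bone defect they work beside osteoclasts, which share much of their lysosomal machinery, and beside osteoblasts, which lay down new bone. The distal femur also holds red marrow, in which neutrophils, B cells and red cells are made, so a sample of the defect can hold marrow in varying amounts. In such whole-tissue samples fewer cells of a type and less RNA per cell cannot be told apart.

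The depth was 15035925 to 17357830 fragments per library in the PCL and hydrogel groups, as recovered from the FPKM steps. The tissue carried the markers that its label asks for, with the bone collagen gene Col1a1 at 7695, 7749 and 5370.3 FPKM in PCL replicates 1 to 3 and 8945, 8401 and 3635 FPKM in hydrogel replicates 1 to 3. Erythroid genes took 5.63%, 9.06% and 14.3% of all FPKM in the PCL libraries and 10.1%, 5.13% and 9.78% in the hydrogel libraries, so that the groups overlapped in this share. The control and TCP libraries entered the fit only through the spread that all groups share. TCP replicates 2 and 3 were much closer to each other than any other pair of one group, with a mean chi-square per gene of 2.13 over the genes tested, against 34.8 to 351 in the other pairs. With those libraries averaged as 1 the calls at an adjusted p under 0.05 fell from 13 to 4.

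The direction of the difference depended on the threshold. At a limma adjusted p under 0.05, 13 genes were higher in PCL, 0.103% of the genes tested, and 0 were lower (0%), where the smallest adjusted p was 0.14. At an unadjusted p under 0.05, 365 genes were higher in PCL (2.89%) and 675 were lower (5.34%). Lower genes at an adjusted p under 0.05 numbered 0 with limma-voom on recovered fragments, 2 without a filter on low values, 1 in a fit of the 9 scaffold libraries, 3 without control replicate 3 and 1 without hydrogel replicate 1. With weights per library, whose iteration stopped before it converged, 1654 were lower and 822 higher. The threshold of the study's methods, which asks for a fold change above 2 or below 0.5 and a p under 0.05 without adjustment, was passed by 69 higher genes (0.546%) and 28 lower genes (0.222%). The lower genes were the larger group at this threshold in a fit of the 6 libraries (102 lower, 73 higher), in a fit of the 9 scaffold libraries (100 and 74), with weights (151 and 115), without control replicate 3 (97 and 75) and without PCL replicate 1 (89 and 74). In 68 of the 69 and 25 of the 28 the libraries of the groups did not overlap. Among all genes tested, 5.09% had all 3 PCL libraries above all 3 hydrogel libraries and 15.4% had them below. The median log2 difference over all genes was -0.06, and 39% of the estimates were above 0.

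The number of genes called changed with the libraries in the fit. Leaving out 1 library moved the 13 calls at an adjusted p to between 1, without hydrogel replicate 3, and 29, without TCP replicate 1. The count was 6, 5 and 25 without control replicates 1, 2 and 3, 4 and 20 without hydrogel replicates 1 and 2, 4, 2 and 9 without PCL replicates 1, 2 and 3, and 5 and 4 without TCP replicates 2 and 3. The 69 higher genes at the threshold of the study's methods moved less, to between 67 and 94, than the 28 lower genes. The lower genes were 7 without PCL replicate 2, 10 without hydrogel replicate 3, and 97 without control replicate 3. They were 55 without control replicate 2, 57 without hydrogel replicate 1, and 89 and 19 without PCL replicates 1 and 3.

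**Figure D1:**
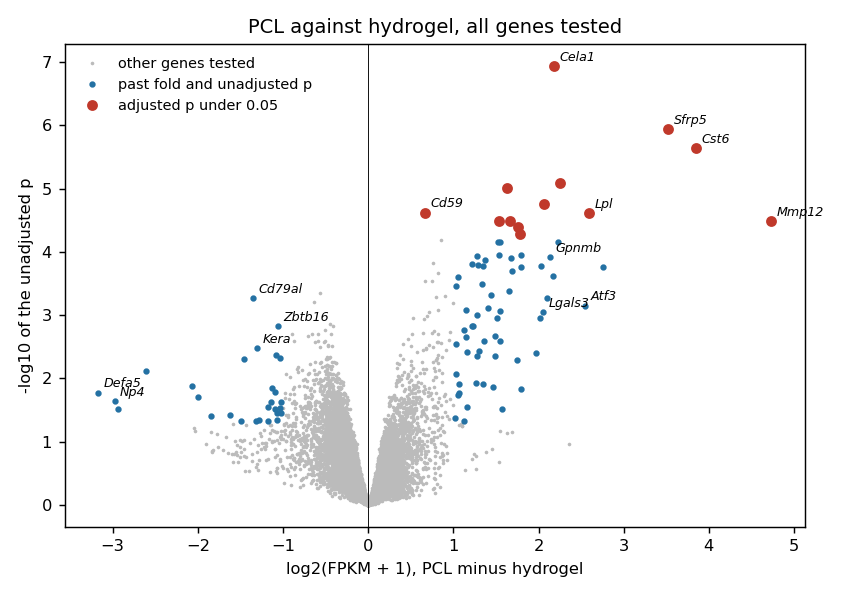
Each point is 1 of the 12633 genes tested, placed by its log2(FPKM + 1) difference, PCL minus hydrogel (x axis), and by -log10 of its unadjusted p (y axis). The 13 genes at an adjusted p under 0.05 all lie on the right, from Cd59 at 0.67 to Mmp12 at 4.73, while the largest negative difference at the threshold, Defa5 at -3.17, has a much larger p.

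Of the 13 called genes, 4 encode proteases or protease inhibitors, a grouping made after the values were seen. Mmp12, the macrophage elastase that cuts elastin and other matrix proteins, was at 850.0, 504 and 367 FPKM in PCL replicates 1 to 3 and at 13.9, 44.9 and 11.3 FPKM in hydrogel replicates 1 to 3. Even the lowest PCL library was thus far above the highest hydrogel library (log2 difference 4.73, SE 0.68, adjusted p = 0.0376). Cela1, an elastase of the chymotrypsin family best known from the digestive tract, was at 12.6, 9.11 and 9.797 FPKM in PCL and 1.52, 1.15 and 1.92 FPKM in hydrogel. It had the smallest p of all genes (log2 difference 2.18, SE 0.17, adjusted p = 0.00145) and was the only called gene to keep its call in all 30 alternatives. Among these, the ratio of group means kept the p of the main fit and so could not lose a call. Cst6, cystatin E/M, a secreted inhibitor of cysteine proteases such as legumain, was at 65.9, 38.02 and 21.1 FPKM in PCL and 1.15, 3.73 and 0.876 FPKM in hydrogel (log2 difference 3.85, SE 0.42, adjusted p = 0.00971). Its 3 PCL libraries spread over a wide range, replicate 1 highest and replicate 3 lowest, yet did not reach the hydrogel libraries. Serping1, the C1 inhibitor that holds back the first complement proteases and plasma kallikrein, was at 507, 301 and 343 FPKM against 129.9, 134 and 76.2 FPKM (log2 difference 1.76, SE 0.26, adjusted p = 0.0422).

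Other called genes act at the cell surface or outside the cell. Sfrp5, a secreted protein that binds Wnt ligands, was at 24.9, 10.3 and 9.45 FPKM in PCL and at 0.121, 0.447 and 0.234 FPKM in hydrogel, under 1 FPKM in every hydrogel library (log2 difference 3.52, SE 0.35, adjusted p = 0.00718). Lpl, lipoprotein lipase, which frees fatty acids from circulating lipoproteins, was at 340.1, 217 and 168 FPKM in PCL and 42.5, 43.9 and 28.3 FPKM in hydrogel (log2 difference 2.59, SE 0.36, adjusted p = 0.0376). Il18bp, the soluble decoy that neutralizes interleukin 18, was at 32.5, 24.4 and 19.6 FPKM against 5.67, 9.03 and 5.43 FPKM (log2 difference 1.78, SE 0.27, adjusted p = 0.0499), the weakest call of the 13. Cd59, which stops the complement membrane attack complex on host cells, showed the smallest change of the 13. Its PCL libraries were at 143, 136 and 145 FPKM and its hydrogel libraries at 97.1, 84.5 and 84.4 FPKM, tight within each group and apart between them (log2 difference 0.67, SE 0.09, adjusted p = 0.0376).

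Alcam, an adhesion molecule of the immunoglobulin family, was at 43.6, 39.3 and 26.2 FPKM in PCL and 10.1, 14.3 and 8.05 FPKM in hydrogel (log2 difference 1.66, SE 0.24, adjusted p = 0.0376). Cldn4, a claudin of tight junctions, was at 6.45, 5.54 and 5.36 FPKM against 0.301, 0.988 and 0.628 FPKM (log2 difference 2.07, SE 0.28, adjusted p = 0.0373). Both sets of libraries stood apart, although Cldn4 remained a gene of low level. Efr3b, a plasma membrane anchor for a phosphatidylinositol kinase, was at 5.07, 3.39 and 3.02 FPKM against 0.644, 0.659 and 0.336 FPKM (log2 difference 1.63, SE 0.21, adjusted p = 0.0246). Gpr143, a receptor known from the melanosomes of pigment cells, was at 3.49, 2.43 and 1.38 FPKM against 0, 0.354 and 0.124 FPKM (log2 difference 1.53, SE 0.22, adjusted p = 0.0376). Gpr143 reached 1 FPKM in the PCL libraries alone, so it entered the test only through the group where it was high. Its lack of overlap was thus fixed by the filter and is no support. Ankrd34c, an ankyrin repeat protein, was at 6.28, 3.64 and 2.56 FPKM against 0.0304, 0.064 and 0.0112 FPKM, next to none in hydrogel (log2 difference 2.25, SE 0.28, adjusted p = 0.0246). Outside PCL, Ankrd34c and Cldn4 reached 1 FPKM only in TCP replicates 2 and 3, so they too would not have been tested without PCL.

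**Figure D2:**
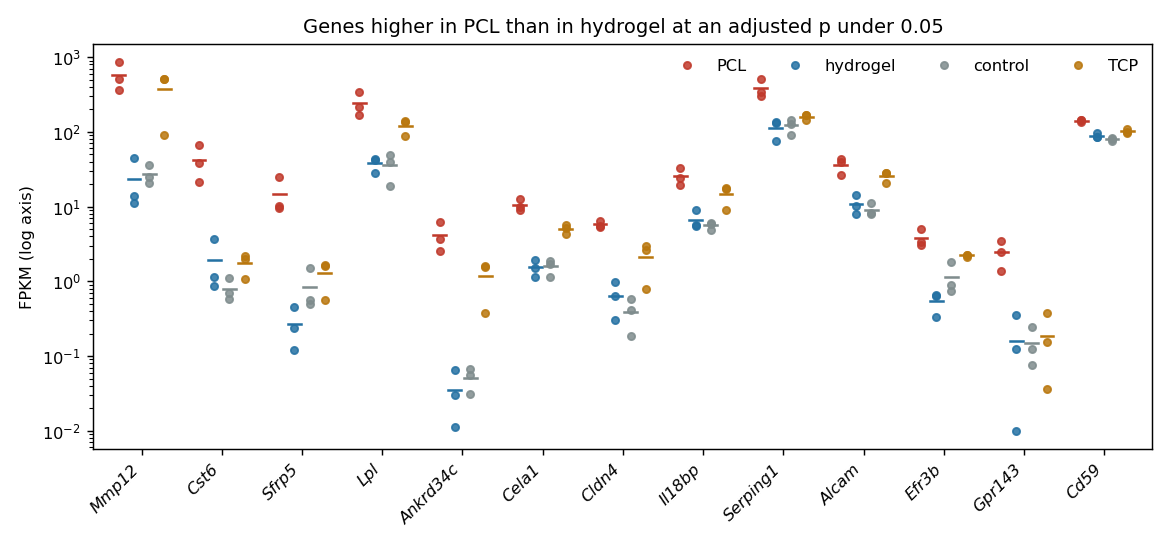
FPKM on a log axis (y axis) of the 13 genes higher in PCL at an adjusted p under 0.05 (x axis), with 1 point per library, the group mean as a bar, and PCL, hydrogel, control and TCP from left to right. A listed 0 is drawn at 0.01, and for each gene the 3 PCL points lie above the 3 hydrogel points, while TCP points reach the PCL range for Mmp12 and stay far below it for Cst6 and Sfrp5. For Gpr143 the PCL points had to lie highest, given the filter on low values.

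The other groups place these genes differently. PCL against control and PCL against TCP use the same 3 PCL libraries as PCL against hydrogel, so each is given with its own value. At an adjusted p under 0.05, 0.277% of the genes tested differed between PCL and control, 0.657% between PCL and TCP, and 0.00792%, the single gene Rps10l1, between hydrogel and control. Cst6 was at 0.706, 1.104 and 0.588 FPKM in control and 1.06, 1.99 and 2.17 FPKM in TCP replicates 1 to 3. Its log2 difference was 4.44 for PCL minus control (adjusted p = 0.0038) and 3.84 for PCL minus TCP (adjusted p = 0.00748). Sfrp5 gave 3.01 (adjusted p = 0.0126) and 2.71 (adjusted p = 0.0159). For these and for Gpr143 (1.49, adjusted p = 0.0282) and Cela1 (0.92, adjusted p = 0.0476) the PCL libraries were also higher than the TCP libraries. For Gpr143 the filter on low values fixed that direction, since only PCL libraries reached 1 FPKM. The TCP libraries were at 91.4, 516 and 514 FPKM for Mmp12, where PCL minus TCP was 0.89 (adjusted p = 0.439), a difference within the spread. The control libraries were at 20.7, 24.5 and 36.5 FPKM, in the range of the hydrogel libraries, and hydrogel minus control was -0.43 (adjusted p = 0.671). Over the 69 genes higher at the threshold, the control mean lay nearer to the PCL mean than to the hydrogel mean in 5 genes, and the TCP mean in 50. The same share over all genes tested was not computed, so these counts have no background to be read against. The TCP mean rests largely on replicates 2 and 3, the unusually close pair, and no count with this pair averaged was made.

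Of the genes of lipid-handling macrophages, 7 of the 18 tested were higher in PCL at the threshold and 0 were lower, beside 0.546% and 0.222% of all genes tested. The members of this list and of the lists below were chosen with earlier results of these data known. Their counts and medians are therefore a description and no independent support. All 18 tested members of this list had an estimate above 0, with a median log2 difference of 1.01 beside -0.06 over all genes. The median was 0.73 to 1.33 when any one PCL or hydrogel library was left out. Gpnmb, a transmembrane glycoprotein of macrophages and osteoclasts, was at 1617, 1127 and 947 FPKM in PCL and 269.7, 442 and 169 FPKM in hydrogel (log2 difference 2.13, SE 0.36, unadjusted p = 0.000122, adjusted p = 0.0715). The lowest PCL library was well above the highest hydrogel library, replicate 2. Fabp4, a fatty acid carrier of fat cells and macrophages, was at 932, 694 and 643 FPKM against 119.8, 231 and 191 FPKM (log2 difference 2.09, SE 0.43, unadjusted p = 0.000539, adjusted p = 0.151). Fabp5, its relative in macrophages and skin, was at 256, 219 and 224 FPKM against 72.1, 107 and 64.5 FPKM (log2 difference 1.54, SE 0.24, unadjusted p = 7.07e-05, adjusted p = 0.0525). Lgals3, galectin 3, a sugar-binding protein of phagocytes, was at 788, 556 and 496 FPKM against 112, 240.2 and 112 FPKM (log2 difference 2.05, SE 0.45, unadjusted p = 0.000892, adjusted p = 0.209). Lipa, the lysosomal acid lipase that breaks down cholesteryl esters, was at 119, 90.8 and 72.8 FPKM against 28.4, 42.8 and 30.4 FPKM (log2 difference 1.44, SE 0.29, unadjusted p = 0.000485, adjusted p = 0.15). Trem2, a lipid-sensing receptor that signals through Tyrobp, was at 85.7, 57.4 and 54.3 FPKM against 19.6, 37.7 and 13.2 FPKM (log2 difference 1.54, SE 0.39, unadjusted p = 0.00257, adjusted p = 0.372). For Gpnmb, Fabp4, Fabp5, Lgals3, Lipa and Trem2 alike, hydrogel replicate 2 was the highest library of its group, as it was in 60 of the 69 genes higher at the threshold, while PCL replicate 1 was the highest of its group in 58. Members further from the threshold included Apoe (1.10, unadjusted p = 0.0558), whose hydrogel libraries at 1017, 2012 and 645 FPKM came close to the PCL libraries at 3046, 2031 and 2111 FPKM. The fatty acid receptor Cd36 (0.32, unadjusted p = 0.453) and the lipid droplet protein Plin2 (0.34, unadjusted p = 0.195) did not pass.

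Fabp4 and Lpl are also genes of fat cells. Of the 9 tested members of the adipocyte list, 1 passed the threshold, Fabp4 itself, 4 had an estimate above 0, and the list median was -0.24. The summed FPKM of the list, most of it Fabp4, was 999, 737 and 679 in PCL and 161, 280.4 and 242 in hydrogel. At an unadjusted p under 0.05, Cidea, a lipid droplet protein of brown fat, was higher (0.83, 0.0202) and Lipe, the hormone-sensitive lipase, lower (-0.35, 0.0227). The fat-cell hormone gene Adipoq was at 13.6, 1.05 and 0.972 FPKM in PCL and 1.38, 4.65 and 10.3 FPKM in hydrogel (log2 difference -0.45, unadjusted p = 0.652), a wide spread within both groups, and Plin1, which coats lipid droplets, had a difference of -0.26 (unadjusted p = 0.705). The part of fat cells in the Fabp4 and Lpl values was not tested.

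General macrophage markers gave a median closer to 0. Of 18 tested, 10 had an estimate above 0 and 8 below, the median was 0.12, and 2 passed the threshold. Csf1r, the receptor that macrophages need to survive, had a log2 difference of 0.16 (unadjusted p = 0.504), and Adgre1, the F4/80 antigen, one of -0.26 (unadjusted p = 0.518). The complement genes C1qa, C1qb and C1qc of resident macrophages had differences of -0.12, -0.39 and -0.30 (unadjusted p = 0.522, 0.0504 and 0.0946). The members that passed were Itgam, the integrin chain CD11b, at 66.4, 57.9 and 45.2 FPKM against 19.3, 27.5 and 21.7 FPKM (log2 difference 1.27, SE 0.42, unadjusted p = 0.0117, adjusted p = 0.588), and Cd5l, a scavenger protein that macrophages secrete, at 20.7, 22.05 and 19.7 FPKM against 10.5, 7.33 and 8.77 FPKM (log2 difference 1.16, SE 0.46, unadjusted p = 0.0282, adjusted p = 0.588). Both kept their PCL libraries above all hydrogel libraries. The summed FPKM of the list was 4909, 5380.1 and 4883 in the PCL libraries and 3754, 5638 and 4051 in the hydrogel libraries, with hydrogel replicate 2 above every PCL library.

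Genes tied to macrophage fusion and foreign body giant cells gave a list median of 0.52, with 13 of 16 estimates above 0 and 2 at the threshold. These were Mmp12 and Itgam. Cd44 (0.46, unadjusted p = 0.0301), Sirpa (0.50, 0.0105) and Itgax (0.80, 0.0169), surface proteins of fusing macrophages, reached an unadjusted p under 0.05 without a 2-fold change. Tm4sf19, a tetraspan protein of osteoclasts and giant cells, was at 57.2, 61.4 and 39.2 FPKM against 18.2, 23.4 and 8.25 FPKM (log2 difference 1.69, SE 0.30, unadjusted p = 0.000203, adjusted p = 0.0826). Markers of alternative activation (median 0.13, 0 of 13 at an unadjusted p under 0.05) and of inflammatory activation (median 0.05, 0 of 11) had medians nearer to 0. Fn1 and Chi3l1 of the first list had differences of 0.28 and 0.77, and Il1b and Ccl5 of the second 0.18 and -0.85.

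The upstream sequences of 4 of these genes are shown because each holds letters bound by factors of macrophages and osteoclasts, the AP-1 motif TGANTCA or the CLEAR-like motif TCANGTGA of the Mitf and Tfeb family. They are the 250 bases before the RefSeq gene start in GRCr8, another assembly than the Rnor_6.0 of the expression table, with matches on either strand in capitals.
Mmp12 (chr8:12866402-12866651, plus strand): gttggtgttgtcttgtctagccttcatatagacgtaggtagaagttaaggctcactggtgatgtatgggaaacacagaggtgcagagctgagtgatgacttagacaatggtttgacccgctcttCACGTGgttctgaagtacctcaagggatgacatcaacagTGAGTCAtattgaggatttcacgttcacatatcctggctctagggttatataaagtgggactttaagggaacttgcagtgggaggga
Gpnmb (chr4:79340878-79341127, plus strand): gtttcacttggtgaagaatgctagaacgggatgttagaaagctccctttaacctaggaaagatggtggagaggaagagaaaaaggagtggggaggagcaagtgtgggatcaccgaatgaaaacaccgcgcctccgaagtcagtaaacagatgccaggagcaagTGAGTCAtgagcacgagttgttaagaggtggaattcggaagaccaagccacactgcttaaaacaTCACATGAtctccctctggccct
Mcoln3 (chr2:237668756-237669005, plus strand): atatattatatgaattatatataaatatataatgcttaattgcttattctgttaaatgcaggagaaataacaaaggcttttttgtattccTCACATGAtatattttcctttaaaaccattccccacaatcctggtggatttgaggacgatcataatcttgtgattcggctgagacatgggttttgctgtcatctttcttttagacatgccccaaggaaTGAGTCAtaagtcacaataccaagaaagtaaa
Tm4sf19 (chr11:81889647-81889896, minus strand): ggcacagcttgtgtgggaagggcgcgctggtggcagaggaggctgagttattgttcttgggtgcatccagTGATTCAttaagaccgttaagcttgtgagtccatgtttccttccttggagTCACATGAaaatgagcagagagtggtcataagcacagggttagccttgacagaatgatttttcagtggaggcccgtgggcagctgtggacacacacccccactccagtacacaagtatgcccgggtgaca

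Counted from the gene start, an AP-1 match began at -87 in Mmp12, -87 in Gpnmb, -32 in Mcoln3 and -180 in Tm4sf19. A CLEAR-like match began at -23 in Gpnmb, -160 in Mcoln3 and -130 in Tm4sf19, and the E-box CACGTG, whose letters can lie inside a CLEAR-like match, at -126 in Mmp12. Of the 69 genes higher at the threshold, 48 had an entry in the promoter table. An AP-1 match was in 6 of them (12.5%) and a CLEAR-like match in 6 (12.5%), beside 4.47% and 3.69% of the 8843 genes tested that had an entry, and 6.35% and 3.41% of all 24206 entries. The E-box was in 4 of the 48 (8.33%) and in 8.23% of the genes tested. The PU.1-like motif GAGGAAGT was in 1 of the 48 (2.08%) and in 2.53% of the genes tested. Of the 17 lower genes with an entry, 0 held AP-1, CLEAR-like or E-box letters and 1 (5.88%), Ms4a3, held the PU.1-like motif. These shares describe letters in a short window and were not tested.

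Most lysosomal and acidifying genes had small differences above 0. The lysosome list had 30 of 34 estimates above 0 and a median of 0.21. Its 7 members at an unadjusted p under 0.05 were all higher in PCL, and 0 of them changed 2-fold. Of all genes tested, 2.89% were higher and 5.34% lower at this p. Cd68, a glycoprotein of macrophage lysosomes, had a log2 difference of 0.76 (SE 0.25, unadjusted p = 0.0104), and Psap, the precursor of the saposins, was at 1024, 966 and 788 FPKM against 622, 754 and 574 FPKM (log2 difference 0.51, SE 0.21, unadjusted p = 0.034, adjusted p = 0.595). The vacuolar proton pump gave 17 of 18 estimates above 0, a median of 0.30 and 3 members at an unadjusted p under 0.05. Among cathepsins and cystatins, 7 of 19 were higher at an unadjusted p under 0.05 and 0 lower, with a median of 0.29. Ctsd (0.95, unadjusted p = 0.0025), Ctsb (0.68, 0.00334) and Lgmn (0.77, 0.0273), proteases of macrophage lysosomes, were among these, whereas Ctsk, the collagen-degrading protease of osteoclasts, was at 3074, 3418 and 2359 FPKM against 2706, 3693 and 1614 FPKM and overlapped (0.21, 0.486). Scaling by the median of ratios, which moved the median of all genes to 0.03, gave medians of 0.32, 0.41 and 0.41 for these lists.

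Osteoclast markers had a median of 0.26 with 15 of 17 estimates above 0 and 1 at the threshold, Tm4sf19, described above. The defining genes Acp5, the acid phosphatase of the resorbing cell (0.21, unadjusted p = 0.474), and Nfatc1, its master transcription factor (0.16, 0.451), did not pass. Fc and inhibitory receptors of myeloid cells had 19 of 20 estimates above 0 and a median of 0.43, yet only Trem2 passed the threshold and Fcgr3a pointed down (-0.68, unadjusted p = 0.197).

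**Figure D3:**
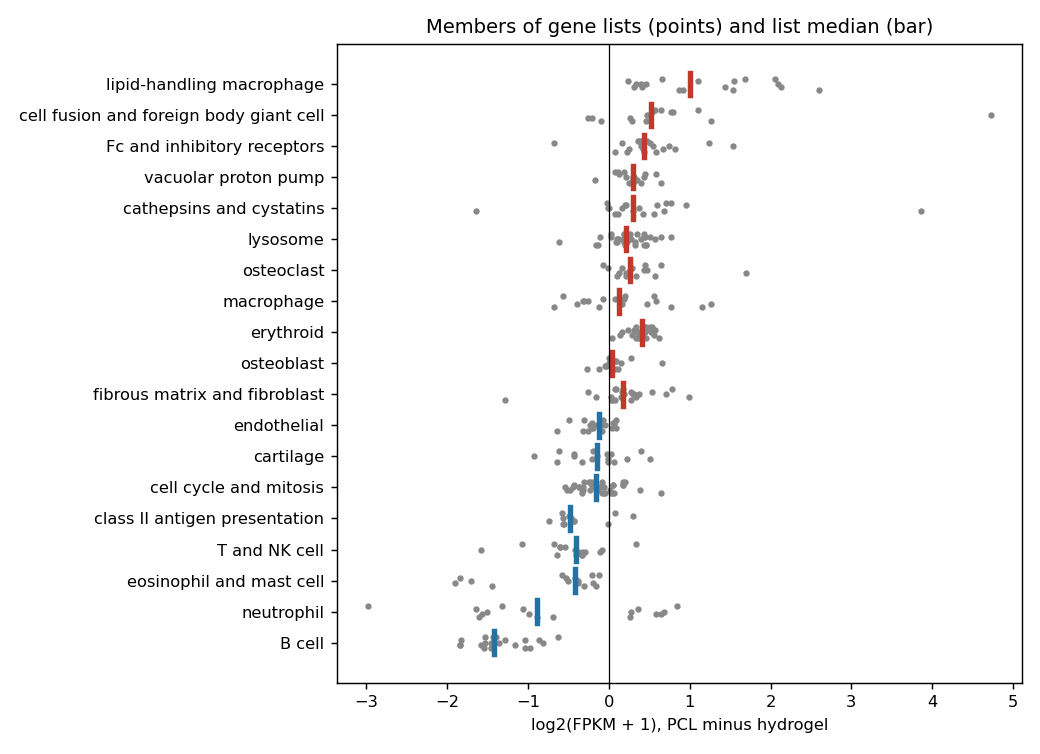
Points are the tested members of 19 gene lists, placed by their log2(FPKM + 1) difference, PCL minus hydrogel (x axis), with 1 list per line and the list median as a bar, red above 0 and blue below. Lipid-handling macrophage genes lie wholly to the right with a median of 1.01, B cell genes wholly to the left with a median of -1.42, and osteoblast genes around 0.

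Further genes higher in PCL at the threshold act in stress responses, signaling and transport. Atf3, a stress-induced transcription factor, was at 29.5, 23.5 and 18.00 FPKM in PCL and 2.42, 5.64 and 2.15 FPKM in hydrogel (log2 difference 2.54, SE 0.54, unadjusted p = 0.000715, adjusted p = 0.188). Egr2, an early growth response factor of macrophages and nerve, was at 3.903, 3.18 and 1.94 FPKM against 0.483, 0.897 and 0.488 FPKM (log2 difference 1.28, SE 0.22, unadjusted p = 0.000114, adjusted p = 0.0715). They were the 2 genes past the threshold among the 20 tested immediate early genes, whose median, both included, was 0.12, with differences of -0.08 for Fos, 0.11 for Junb and 0.39 for Egr1. Slc7a11, the cystine importer that feeds glutathione synthesis, was at 7.54, 4.57 and 2.54 FPKM against 0.752, 0.999 and 0.534 FPKM (log2 difference 1.66, SE 0.33, unadjusted p = 0.000415, adjusted p = 0.134). Outside PCL, Slc7a11 reached 1 FPKM only in TCP replicates 2 and 3, so it would not have been tested without PCL. Within oxidative stress defense it was joined at an unadjusted p under 0.05 by Nqo1 (0.76) and Srxn1 (0.82), and the list median was 0.21. Ndrg1, a gene induced by low oxygen and stress, was at 101, 91.98 and 68.5 FPKM against 34.1, 40.4 and 26.5 FPKM (log2 difference 1.35, SE 0.24, unadjusted p = 0.000169, adjusted p = 0.0739), while the other 18 tested hypoxia and glycolysis genes did not pass and the list median was 0.09.

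Plau, the urokinase that activates plasminogen, was at 59.98, 59.97 and 40.7 FPKM against 17.2, 23.8 and 9.47 FPKM (log2 difference 1.68, SE 0.28, unadjusted p = 0.000125, adjusted p = 0.0715), the sole member of its list of 8 past the threshold. Among ion transport genes Atp1b1, a beta subunit of the sodium-potassium pump, was at 98.5, 115 and 91.8 FPKM against 27.9, 33.6 and 24.6 FPKM (log2 difference 1.79, SE 0.32, unadjusted p = 0.000175, adjusted p = 0.0739). In the mineral absorption list 7 of 22 members were higher at an unadjusted p under 0.05, and 0 were lower, beside 2.89% and 5.34% of all genes tested. These included the ferritin chains Fth1 (2481, 2489 and 2798 FPKM against 1642, 1768 and 1620.2 FPKM, log2 difference 0.63, unadjusted p = 0.0213) and Ftl1 (0.50, 0.00541), which store iron, and the sodium-calcium exchanger Slc8a1 (0.69, 0.00103). Ankh, which exports pyrophosphate and ATP and so holds back mineral deposition, was at 123, 112 and 99.7 FPKM against 70.3, 80.2 and 44.7 FPKM (log2 difference 0.81, SE 0.21, unadjusted p = 0.00266, adjusted p = 0.372).

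Few genes of immune signals passed the threshold. Il1rn, the natural antagonist of interleukin 1, was at 34.3, 32.9 and 21.8 FPKM in PCL and 7.93, 13.2 and 7.204 FPKM in hydrogel (log2 difference 1.57, SE 0.63, unadjusted p = 0.0304, adjusted p = 0.588). Tnfsf8, the CD30 ligand, was at 7.25, 4.42 and 3.98 FPKM against 0.984, 1.35 and 0.993 FPKM (log2 difference 1.53, SE 0.24, unadjusted p = 7.03e-05, adjusted p = 0.0525). In the list of interleukin and TNF cytokines, which does not hold Tnfsf8, 1 of 19 tested members passed the threshold, Il1rn. Il1b was at 18.3, 18.4 and 19.9 FPKM against 17.6, 17.9 and 14.3 FPKM (0.18, unadjusted p = 0.792), a small step although the groups did not overlap. Il6 was below 1 FPKM in all 6 libraries, and Tnf, Il10 and Il1a were too low to be tested. Ccl2, the chemokine that draws monocytes, was at 17.03, 15.4 and 10.04 FPKM against 11.1, 12.2 and 5.29 FPKM (0.57, unadjusted p = 0.147). Chemokines of the CC and CXC families gave medians of 0.10 and -0.13 with 0 members at the threshold. Complement genes were split, with a median of -0.08 over 21 members, of which Serping1 and Cd59 were called higher, Itgam passed the threshold, and C7, a part of the membrane attack complex, was lower at an unadjusted p of 0.0406 (-0.56).

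The genes lower in PCL, and so higher in hydrogel, included several genes of marrow precursors. Of the 28 at the threshold, 0 passed an adjusted p under 0.05, and all 28 had an unadjusted p under 0.05. Defa5, Np4, RatNP-3b and Defa11, alpha-defensins of neutrophil granules made at the promyelocyte stage, had the largest differences among them. Defa5 was at 332, 269 and 748 FPKM in hydrogel replicates 1 to 3 and 51.6, 20.5 and 81.2 FPKM in PCL replicates 1 to 3 (log2 difference -3.17, SE 1.12, unadjusted p = 0.017, adjusted p = 0.588). Np4 was at 376, 291 and 805 FPKM against 63.1, 26.2 and 103 FPKM (log2 difference -2.98, SE 1.12, unadjusted p = 0.0232, adjusted p = 0.588). For Defa11 the values were 10.8, 11.2 and 32.4 FPKM against 2.77, 0.58 and 2.55 FPKM (log2 difference -2.61, SE 0.79, unadjusted p = 0.00764, adjusted p = 0.578). Hydrogel replicate 3 was the highest in each, and the control libraries spread even more widely, at 92.2, 450.0 and 8.66 FPKM for Np4. These genes, with RatNP-3b at a log2 difference of -2.94, are near-identical copies that can share reads, so the split between them is uncertain. Ms4a3, a marker of granulocyte and monocyte progenitors, was at 10.5, 7.97 and 18.6 FPKM against 2.99, 1.47 and 2.22 FPKM (log2 difference -2.00, SE 0.72, unadjusted p = 0.0194, adjusted p = 0.588).

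The neutrophil list fell into genes of the early granules and genes of the mature cell, a division made after the values were seen. Its median was -0.88 over 17 members, with 10 estimates below 0 and 7 above, and Np4 alone passed the threshold. Mpo, the myeloperoxidase of primary granules, was at 65.6, 69.2 and 131 FPKM in hydrogel and 36.3, 15.9 and 33.8 FPKM in PCL (-1.60, unadjusted p = 0.159). The primary granule proteases Elane (-1.57, 0.0964), Prtn3 (-1.51, 0.0958) and Ctsg (-1.64, 0.152) had similar differences, and in each of these 4 genes all PCL libraries were below all hydrogel libraries. The same held for 7 of the 17 members of the list and for 15.4% of all genes tested. Genes of mature neutrophils had estimates above 0, with 0.27 for S100a8, 0.85 for the collagenase Mmp8, 0.68 for the chemokine receptor Cxcr2 and 0.58 for Padi4 (unadjusted p = 0.843, 0.518, 0.447 and 0.356). S100a8 was at 660.3, 1868 and 2130.3 FPKM in PCL and 1112, 803 and 1682 FPKM in hydrogel, with PCL replicate 1 below the whole hydrogel group.

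B lineage genes had estimates below 0 without passing. All 20 tested B cell genes had an estimate below 0, with a median of -1.42, and 0 reached an unadjusted p under 0.05. In 11 of them the PCL libraries were below all hydrogel libraries, where 15.4% of all genes were. Cd79b, a signaling chain of the B cell receptor, was at 131, 114 and 219.7 FPKM in hydrogel and 105, 29.4 and 41.5 FPKM in PCL (-1.54, SE 1.02, unadjusted p = 0.163). Rag1, which recombines antigen receptor genes in precursor B and T cells, was at 23.9, 24.01 and 57.5 FPKM against 25.3, 3.28 and 6.06 FPKM (-1.84, SE 1.18, unadjusted p = 0.147). In the other 9 genes PCL replicate 1 reached the hydrogel range, as in Rag1 and Fcrla (96.04, 21.9 and 31.3 FPKM against 79.6, 97.8 and 217 FPKM). The summed FPKM of the list was 772, 243 and 350.3 in PCL, 817, 868 and 1637 in hydrogel, 607, 1167 and 46.5 in control and 312, 154 and 153 in TCP replicates 1 to 3, so that control replicate 3 was far below its group. Cd79al, named for its likeness to another B cell receptor chain, was at 2.22, 2.66 and 3.91 FPKM against 1.104, 0.387 and 0.202 FPKM and had the smallest p of the lower genes at the threshold (log2 difference -1.35, SE 0.27, unadjusted p = 0.000537, adjusted p = 0.151).

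**Figure D4:**
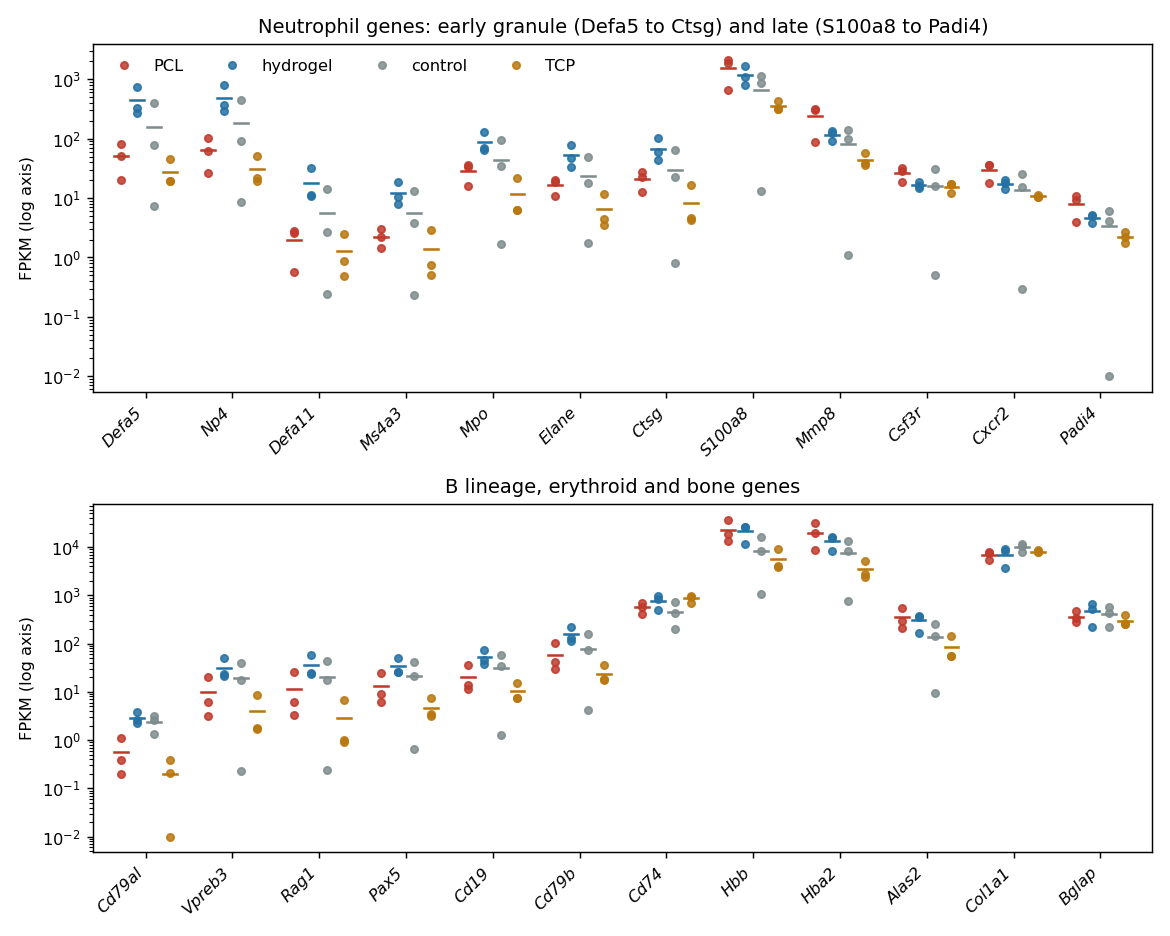
FPKM on a log axis (y axes) of neutrophil genes (upper panel) and of B lineage, erythroid and bone genes (lower panel), with 1 point per library, the group mean as a bar, and PCL, hydrogel, control and TCP from left to right. A listed 0 is drawn at 0.01, and the PCL points lie below the hydrogel points from Defa5 to Ctsg but not for S100a8, while Hbb and Col1a1 overlap.

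Other lymphoid and granulocyte lists had medians below 0 with few calls. T and NK cell genes had a median of -0.40 with 16 of 17 estimates below 0, eosinophil and mast cell genes -0.42 with 15 of 15, and megakaryocyte and platelet genes -0.44 with 10 of 11. Ear1, an eosinophil ribonuclease with close relatives, was the one gene of these past the threshold, at 6.06, 3.95 and 14.5 FPKM in hydrogel and 2.22, 0.0762 and 2.39 FPKM in PCL (log2 difference -1.84, SE 0.78, unadjusted p = 0.0393, adjusted p = 0.597). Nkg7, a granule protein of cytotoxic lymphocytes, was at 23.9, 38.7 and 39.00 FPKM against 15.9, 12.9 and 17.3 FPKM (-1.07, unadjusted p = 0.0939). Class II antigen presentation genes had a median of -0.48, with Cd74, the invariant chain, at 856, 981 and 485 FPKM against 689, 579.6 and 419 FPKM (-0.43, unadjusted p = 0.333), and 0 of 12 at the threshold. Dendritic cell genes (median -0.26, 11 of 13 below 0) and plasma cell genes (-0.25, 6 of 8) also had 0 members at the threshold.

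The remaining lower genes came from several programs. Zbtb16, the PLZF factor of progenitors and innate-like lymphocytes, was at 1.02, 2.96 and 3.07 FPKM in hydrogel and 0.43, 0.704 and 0.478 FPKM in PCL (log2 difference -1.06, SE 0.25, unadjusted p = 0.0015, adjusted p = 0.294). Kera, a keratan sulfate proteoglycan of cornea and of osteoblasts, was at 4.002, 5.09 and 2.87 FPKM against 1.49, 0.175 and 1.65 FPKM (log2 difference -1.31, SE 0.35, unadjusted p = 0.00336, adjusted p = 0.412). In both the groups stood apart at low levels. Zbtb16 reached 1 FPKM in the hydrogel libraries alone, so for Zbtb16 the filter on low values fixed this and it is no support. Dpt, the dermatopontin of fibrous matrix, was at 22.6, 41.6 and 38.4 FPKM against 27.6, 5.85 and 12.98 FPKM, where PCL replicate 1 lay inside the hydrogel range (log2 difference -1.29, SE 0.57, unadjusted p = 0.0458, adjusted p = 0.602). Hspa2 (-1.08), a heat shock protein of the 70 kDa family rich in testis, Gfap (-1.04), the filament of astrocytes and some Schwann cells, and Cep55 (-1.13), which acts in the last step of cell division, passed the threshold with adjusted p of 0.479, 0.496 and 0.588. Sapcd1, Timd2, Zfp202, Cyp2s1 and Glcci1 had differences from -1.15 to -1.03 with an adjusted p of 0.588 each. In 25 of the 28 lower genes hydrogel replicate 3 was the highest of its group, and in 20 PCL replicate 2 was the lowest of its group.

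Among genes of bone formation 0 passed. The osteoblast list had a median of 0.04 over 16 members, the osteocyte list 0.12 over 7, and 0 members of either reached an unadjusted p under 0.05. Runx2, the factor that commits cells to bone, was at 17.3, 17.9 and 10.6 FPKM in PCL and 17.96, 17.04 and 9.06 FPKM in hydrogel (0.07, SE 0.27). Sparc, a collagen-binding matrix protein, gave 0.06 (SE 0.35), and Dmp1 and Mepe, matrix proteins of osteocytes, 0.27 and 0.37 (SE 0.32 and 0.35). For Runx2 and Sparc replicate 3 was the lowest library of both groups. The cartilage list had a median of -0.15 over 19 members, and the hypertrophic cartilage list 0.05 over 8, with 0 members at an unadjusted p under 0.05. Col2a1, its main collagen, was at 166, 116 and 26.3 FPKM against 47.4, 32.6 and 448 FPKM, where hydrogel replicate 3 exceeded every PCL library and the other 2 were below most of them (-0.15, SE 1.27). Sox9, Ihh, Col10a1 and Pth1r, which act in or mark cartilage from chondrocyte to hypertrophic cell, had differences of -0.01, -0.31, -0.59 and 0.08 (SE 0.39, 0.61, 0.93 and 0.40). With 3 libraries a group such SEs do not exclude sizeable differences in the more variable cartilage genes.

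Lists of matrix, vessel and stroma genes had medians from -0.12 to 0.21. The medians were 0.17 for fibrous matrix and fibroblast genes, 0.05 for matrix crosslinking enzymes, 0.07 for basement membrane, -0.12 for endothelial genes, 0.21 for pericyte and smooth muscle genes and -0.07 for marrow stroma. Of these lists only Dpt passed the threshold. Cxcl12, the chemokine by which stroma retains blood precursors, was at 271, 210.3 and 181 FPKM in PCL and 297, 270.1 and 213 FPKM in hydrogel (-0.24, unadjusted p = 0.591). Vegfa, the main growth factor of vessels, was at 14.5, 15.5 and 11.8 FPKM against 16.1, 16.7 and 9.501 FPKM (0.01, SE 0.33). In the matrix metalloproteinase list, with a median of 0.30, Mmp12 alone of 19 members passed, and Mmp13, the collagenase of bone and cartilage, was at 1057, 1435 and 856 FPKM against 1162, 1127 and 433 FPKM (0.40, unadjusted p = 0.302). In the Wnt list Sfrp5 alone of 22 passed, and Axin2, a target of canonical Wnt signaling, was lower at an unadjusted p of 0.00657 (-0.44). Igfbp2, an IGF-binding protein, was the single gene of the IGF and FGF list past the threshold (1.48, 2.45 and 2.98 FPKM against 0.93, 0.196 and 0.616 FPKM, log2 difference 1.06, adjusted p = 0.588).

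Markers of red cells and muscle varied between libraries more than between scaffolds. All 27 tested erythroid genes had an estimate above 0 with a median of 0.40, but 0 reached an unadjusted p under 0.05 and in 0 did the groups stand apart. Hbb was at 13263, 18386 and 36197 FPKM in PCL and 26612, 11806 and 25813 FPKM in hydrogel, highest in PCL replicate 3 and lowest in hydrogel replicate 2 (0.04, SE 0.85). The median of the erythroid list was 0.01 to 0.80 with any one PCL or hydrogel library left out. With the erythroid list left out of each library's total, the calls at an adjusted p under 0.05 numbered 24 instead of 13, with the 13 among them. The summed FPKM of the skeletal muscle list was 372, 29.1 and 314 in PCL and 66.8, 27.6 and 626 in hydrogel, so that 2 PCL libraries and 1 hydrogel library held most of it. Tnni2 and Tnnc2, troponins of fast fibers, followed it with 22.03, 0.509 and 16.3 FPKM against 4.35, 1.03 and 42.3 FPKM for Tnni2. The part of marrow, red cells or muscle in any single difference above was not tested.

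General cell programs gave medians close to that of all genes. They were -0.16 for cell cycle and mitosis, -0.06 for DNA replication, -0.04 for ribosomal proteins, 0.12 for oxidative phosphorylation, -0.11 for cholesterol synthesis and -0.06 for endoplasmic reticulum chaperones, with 0 members at the threshold. Oxidative phosphorylation genes had small differences of one direction, with 26 of 28 estimates above 0, none over 0.31. In 12 of the 28 all PCL libraries were above all hydrogel libraries, beside 5.09% of all genes tested. Top2a, which untangles DNA in dividing cells, was at 87.6, 67.9 and 106 FPKM in PCL and 105, 87.9 and 188 FPKM in hydrogel (-0.48, unadjusted p = 0.475). Signaling lists lay in the same narrow band, at 0.07 for TGF-beta and BMP, 0.04 for Notch, -0.22 for hedgehog, 0.10 for FoxO and -0.12 for the interferon response. Annexins and S100 proteins (0.27), carbonic anhydrases (0.18), calcium and phosphate transport (0.12), iron and heme recycling (0.14), senescence and cell cycle arrest (0.07) and Schwann cell and nerve genes (0.32) completed the lists, again with 0 members at the threshold.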

How the data were processed

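RNA of defect tissue was sequenced in 12 libraries, 3 in each of 4 groups taken from the sample labels. The authors deposited FPKM values. Per the study's methods these came from Cufflinks after cleaning with Trimmomatic and mapping by HISAT2. The build Rnor_6.0 is named in the submitters' processing notes, which further list StringTie, Bowtie, DESeq and HTSeq, all without a version. The study's methods and the labels name different extraction and library kits, and the labels' kit alone is described as stranded, so values of overlapping and antisense genes are uncertain. A further 3 columns of values match no sample and were not used.

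The test was limma 3.58.1 (R 4.3.3) with a trended variance on log2(FPKM + 1). It was run on the 12633 genes reaching an FPKM of 1 in 3 or more libraries, and all 12 libraries shared one model of group means. A low gene that reached this level mainly in the group where it was high entered the test through that group. The p-values are two-sided and were adjusted by Benjamini-Hochberg over these genes. A log2 difference on this scale understates the change of low genes, and no intervals beyond the SE were computed. Whole fragments were recovered from the FPKM steps in all 18684 genes above 0 (100% within 0.01 of a whole number), which gave the depth. Limma-voom on these fragments called 1 gene at an adjusted p under 0.05. The test and the recovery were tested on simulated data. Of 1123 list symbols, 1105 matched by name, 11 through a RefSeq symbol or synonym, and 7 did not match. The members of the 60 lists were chosen with earlier results of these data known. Lists are described by counts and medians, without a test.

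Named genes were, per direction, at most 15 genes called after adjustment without overlap of the groups, taken by size of change, filled by the smallest p among genes at the threshold of the study's methods without overlap, then from each list up to 4 members at that threshold or else the 2 of highest mean FPKM, and genes of the study's text. Genes with provisional symbols were counted and not named. Further genes named as markers of a list were chosen after their values were seen. Promoter sequences came from RefSeq (GRCr8). Alternatives were other pseudocounts, filters, scalings, fits and weights, a replicate block, and each library left out. The averaging of TCP replicates 2 and 3 was chosen after the data were seen. The result of 1 gene is not reported here.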

Additional observations from a re-analysis of the deposited data

How the results depend on the processing

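The 13 calls at an adjusted p under 0.05 changed with most settings, and the 69 higher and 28 lower genes at the threshold of the study's methods were 38 to 115 and 7 to 151 over all settings. At an adjusted p under 0.05 the count was 6 with a pseudocount of 0.1, 7 with an FPKM minimum of 5, 26 with median of ratios, 25 with quantile normalization, 24 without the erythroid list in the total, 1 with limma-voom and 4 with TCP replicates 2 and 3 averaged. It was 2476 with weights per library, whose iteration stopped before it converged. The 97 genes at the threshold of the study's methods became 161 with a pseudocount of 0.1, 55 with a pseudocount of 5, 175 in a fit of the 6 libraries, 174 in a fit of the 9 scaffold libraries, 266 with weights, 168 with limma-voom and 182 with the ratio of group means, with p still from the log scale. Higher genes made up 71.1% of the threshold calls, and 41.7%, 42.5%, 43.2%, 58.9% and 56.6% in the fit of 6, the fit of 9, with weights, with limma-voom and with the ratio of means, against 83.7% with median of ratios. Leaving out 1 library gave 1 to 29 genes at an adjusted p and 78 to 172 genes at the threshold. The cause of these changes was not tested. No named gene that passed a threshold changed direction in any alternative, and Cela1, Sfrp5 and Cst6 lost their call at an adjusted p in 0, 2 and 5 of 30 alternatives, the other 10 genes in 6 to 19. The ratio of group means, counted among the 30, kept the p of the main fit and could not lose a call. At the recovered depth a gene below 1 FPKM rests on few fragments, as for Gpr143, Ankrd34c and Sfrp5 in hydrogel.

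Same-numbered PCL and hydrogel libraries had correlations of their deviations of -0.203, 0.469 and 0.443. Differently numbered pairs ranged from -0.574 to 0.233, and PCL replicate 1 correlated most with hydrogel replicate 2 (0.195). The deviations of 3 libraries from their own mean depend on each other, so these values cannot decide whether the numbers pair the samples. A fit with the replicate block gave 3 calls at an adjusted p under 0.05 and 88 genes at the threshold of the study's methods, 69 higher and 19 lower.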

Other observations

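Several genes higher in PCL belong to none of the lists. Sctr, the secretin receptor, was at 21.2, 18.6 and 13.5 FPKM in PCL and 1.27, 3.004 and 1.22 FPKM in hydrogel (log2 difference 2.76, SE 0.49, unadjusted p = 0.000175, adjusted p = 0.0739), and at 0.255, 0.513 and 0.342 FPKM in control replicates 1 to 3. Mcoln3, a cation channel of endosomes and lysosomes, was at 19.1, 16.8 and 13.3 FPKM in PCL and 8.03, 6.502 and 3.41 FPKM in hydrogel (log2 difference 1.37, SE 0.23, unadjusted p = 0.000133, adjusted p = 0.0731). Hspb7, a small heat shock protein of heart and muscle, was at 15.3, 5.76 and 6.57 FPKM against 0.647, 1.26 and 2.33 FPKM (log2 difference 2.02, SE 0.35, unadjusted p = 0.000165, adjusted p = 0.0739). Met, the receptor of hepatocyte growth factor, was at 13.7, 9.58 and 6.32 FPKM against 2.46, 3.39 and 2.08 FPKM (log2 difference 1.53, SE 0.26, unadjusted p = 0.000112, adjusted p = 0.0715). These genes were chosen after their values were seen.

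Ptcd3, which encodes a mitochondrial ribosomal protein, was at 129, 114 and 76.00 FPKM in PCL and 23.8, 34.7 and 30.4 FPKM in hydrogel (log2 difference 1.79, SE 0.30, unadjusted p = 0.000111, adjusted p = 0.0715), in contrast to the ribosomal protein list with a median of -0.04. Cd300ld, a receptor of myeloid cells, was at 3.75, 2.59 and 2.55 FPKM in PCL and 0.638, 0.98 and 0.44 FPKM in hydrogel. It was at 2.23, 1.37 and 0.271 FPKM in control replicates 1 to 3 and 0, 0.136 and 0 FPKM in TCP replicates 1 to 3, near 0 in the last group. Outside PCL, Cd300ld reached 1 FPKM only in control replicates 1 and 2, so it would not have been tested without PCL. Pcyt1b, an enzyme of phosphatidylcholine synthesis, was at 1.37, 2.796 and 3.97 FPKM in PCL and at 0.469, 0.482 and 0.407 FPKM in hydrogel (log2 difference 1.29, SE 0.23, unadjusted p = 0.000159, adjusted p = 0.0739). Outside PCL, Pcyt1b reached 1 FPKM only in control replicate 3, so it too would not have been tested without PCL. It is one of 2 genes among the 69 higher at the threshold in which PCL replicate 3 was the highest library of its group.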
